A study of Mus musculus with 6 samples.

Results

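M2-like macrophages of the infarcted heart were compared with those of the intact heart, using the 2 arrays labelled MI heart and the 2 labelled intact heart out of 6 arrays in the series. The arrays were chosen by their labels alone. The cells are described in the series title as positive for CD206, F4/80 and CD11b, and all came from C57BL/6 mice aged 10 weeks. MI stands for myocardial infarction, the death of heart muscle after its blood supply is cut off. The MI heart group is labelled with an infarction, and the labels of the intact heart group name no operation, sham surgery included. The other 2 arrays, of peritoneal cavity cells, entered the normalization, the detection filter and the estimate of the spread. The sources used here leave unstated how the infarction was made, the time after it, the number of animals behind an array and how the cells were dissociated and sorted. Nothing in the labels says that the arrays of a group came from separate animals, so p-values measure only the spread between arrays, which may be technical.

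Macrophages of the uninjured heart are largely long-lived resident cells that take up dying cells and debris. After an infarction, blood monocytes enter the injured muscle and become macrophages there, and the mix of cells passes through an inflammatory and then a repair phase. CD206, the mannose receptor encoded by Mrc1, is widely used as a marker of macrophages in an alternatively activated, or M2-like, state. Such cells are known for oxidative metabolism, uptake of debris and the making of growth factors and matrix, whereas macrophages activated by microbial products or low oxygen rely more on glycolysis.

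Of 10533 tests (8244 named genes and 2289 probes without a gene name), 479 were higher (4.55%) and 522 lower (4.96%) in MI heart at an adjusted p under 0.05, the threshold of every call below. Together that is 9.5% of the tests. A test value is the log2 of the normalised probe signal, and a difference is MI heart minus intact heart on this scale, given with its standard error (± SE, n = 2 arrays per group) and limma's adjusted p. In all 1001 calls the MI heart arrays lay wholly above or wholly below the intact heart arrays, as they did in 54.0% of all tests. The middle 50% of all differences lay between -0.24 and 0.22, and the median was -0.00. Most calls were modest: 560 of the 1001 differences were under 1, 385 lay between 1 and 2, and 56 were larger. The split between directions depended on how arrays were put on a common scale. Replacing quantile normalization by scaling to a common median gave 610 higher and 165 lower tests. The share of calls that were higher was then 78.7%, against 47.9% before, and the median of all differences lay at 0.12. With arrays scaled to the median of the probes past the detection filter, a setting chosen after seeing the data, 629 were higher and 399 lower (61.2% higher). Single arrays weighed on the counts as well. Without MI heart replicate 1, 134 were higher and 115 lower, and without MI heart replicate 2, 169 and 99. Without either peritoneal array, 288 were higher and 302 lower. Calls of named genes were also checked in fits that leave out 1 array and under 15 other settings of processing, of which the strictest detection filter leaves out genes at background in 1 group, so that these have 14, and the losses are given with each group of genes. Bulk RNA cannot tell fewer cells of a type from less RNA per cell.

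**Figure D1:**
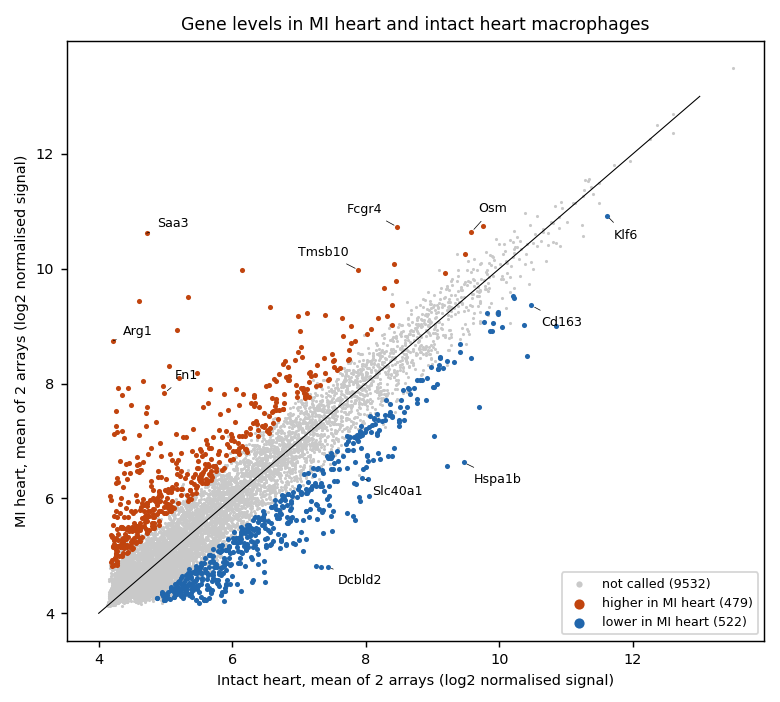
Each point is 1 gene or unnamed probe, with its mean log2 normalised signal over 2 MI heart arrays on the vertical axis and over 2 intact heart arrays on the horizontal axis. Orange points mark the 479 tests higher in MI heart and blue points the 522 lower, and the line marks equal signal. Called genes reach from near the background to the top of the range, with Klf6, Fcgr4 and Osm among the most abundant.

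The arrays were alike in depth but not equal. MI heart arrays had 14023 and 14473 probes above background, intact heart arrays 12433 and 13397. Across genes, the correlation was 0.98 within MI heart, 0.963 within intact heart and between 0.918 and 0.928 across the groups. A fold is given as a lower bound where no probe of the gene was above background on either array of the dimmer group, or where this held for 1 of them and its signal lay under the lowest one above background there. The bound sets the brighter group against that lowest signal, or the gene's own if higher, which holds for 127 higher and 89 lower genes. Several probes were tested for 340 called genes, and in 291 of these (85.6%) all probes lay on the same side of 0, against 63.1% among all genes with several probes. Near-identical copies, such as Hspa1a and Hspa1b or the Lilr4b family, may share probe signal, so their separate values are uncertain. Of the called genes described below, 3 also had a dimmer probe with a difference of the opposite sign that was not called: Slc16a3 (-0.32), Man1b1 (0.18) and Dnase2a (0.46).

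The sorted cells carried the transcripts of macrophages in both groups, and of the 3 gate genes Itgam alone was called. All 12 macrophage and gate genes on the array were above background on all 4 heart arrays. Mrc1, the gene of CD206, had 8.64 and 9.07 in MI heart, against 9.57 and 9.51 in intact heart, and was not called (-0.68 ± 0.19, adjusted p = 0.0546). Adgre1, the gene of F4/80, likewise missed the threshold at 7.51 and 8.16 in MI heart, against 7.70 and 7.38 in intact heart (0.30 ± 0.25, adjusted p = 0.525). Itgam, the gene of CD11b, which forms part of complement receptor 3, had 7.15 and 6.86 in MI heart, against 6.32 and 5.64 in intact heart, and was higher in MI heart (1.02 ± 0.24, adjusted p = 0.0303). Its arrays did not overlap between the groups, as in every call and in 54.0% of all tests. Itgam missed the threshold without either MI heart array, intact heart replicate 2 or either peritoneal array (adjusted p between 0.0700 and 0.204). The call of Itgam was lost under 6 of 15 other settings.

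Genes typical of monocytes and their progeny were mostly higher in MI heart, while 10 of 22 genes of resident heart macrophages were lower. Of 13 tested genes of monocytes and monocyte-derived cells 9 were higher and 0 lower, with a median difference of 1.42. Their summed linear signal was 3022 and 2574 in MI heart, against 919 and 894 in intact heart. It was 3564 and 3677 in peritoneal cavity cells, so a high level was not particular to MI heart. The origin of the cells was not tested. Plac8, a small cysteine-rich protein of monocytes and granulocytes, had 7.23 and 7.02 in MI heart, against 4.22 and 4.24 in intact heart, at least 6.19-fold higher, adjusted p = 4.43e-05. Fn1, which encodes the matrix protein fibronectin, had 7.93 and 7.74 in MI heart, against 5.11 and 4.86 in intact heart (2.85 ± 0.17, adjusted p = 5.94e-05). Ccr2, the receptor that draws monocytes into tissue, lay near background at 4.49 and 4.59 in MI heart, against 4.24 and 4.27 in intact heart (0.28 ± 0.15, adjusted p = 0.285). Of 22 tested genes of resident heart macrophages 1 was higher and 10 lower, with a median of -0.70. Lyve1, a hyaluronan receptor that marks resident macrophages along vessels, had 5.41 and 5.02 in MI heart, against 6.97 and 6.85 in intact heart (-1.69 ± 0.28, adjusted p = 0.00781). Timd4, a phosphatidylserine receptor of self-renewing resident cells, had 5.38 and 4.92 in MI heart, against 6.38 and 6.24 in intact heart (-1.16 ± 0.20, adjusted p = 0.00891). Both groups of arrays were apart for all of these called genes, as in every call and in 54.0% of all tests. Folr2, the folate receptor of the same cells, was not called at 7.04 and 7.10 in MI heart, against 7.72 and 7.55 in intact heart (-0.57 ± 0.17, adjusted p = 0.0703). Lyve1 missed the threshold without MI heart replicate 1 (adjusted p = 0.0512). Lyve1 and Timd4 lost the call without MI heart replicate 2 (adjusted p between 0.0828 and 0.0908). The calls of Lyve1 and Timd4 were lost under 1 of 15 other settings. In the fits without 1 array, 6 to 9 monocyte genes were called higher and 1 to 10 resident macrophage genes were called lower (1 without either MI heart array).

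Textbook genes of alternative activation were split. Of 13 tested genes of alternative activation 3 were higher and 4 lower. The largest increase in the list was that of Arg1, arginase 1, whose values are given below with arginine metabolism. Tgm2, a cross-linking transglutaminase, had 9.57 and 9.11 in MI heart, against 6.53 and 6.62 in intact heart (2.76 ± 0.19, adjusted p = 0.000133). Retnla, a secreted protein that interleukin-4 induces in mice, went the other way, with 4.43 and 4.67 in MI heart, against 6.56 and 6.02 in intact heart, at least 3.32-fold lower, adjusted p = 0.00206. The arrays of the groups were apart for Tgm2 and Retnla, as in every call and in 54.0% of all tests. F13a1, the clotting factor XIII subunit of resident and M2-like cells, was lower as well (-0.95 ± 0.17, adjusted p = 0.0111). The galactose lectin Clec10a and Il4ra, the interleukin-4 receptor chain, were not called (-0.29 ± 0.21 and 0.55 ± 0.21, adjusted p = 0.426 and 0.137). F13a1 missed the threshold without either MI heart array (adjusted p between 0.0503 and 0.104). When each array was left out in turn, 3 alternative activation genes were called higher and 3 to 4 were called lower.

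Markers of other cells were in part at background and in part above it. Of the markers on the array, 2 of 16 for endothelium, 9 of 18 for fibroblasts, 10 of 18 for cardiomyocytes, 5 of 11 for pericytes and smooth muscle cells, 4 of 13 for neutrophils, 6 of 12 for dendritic cells, 2 of 12 for T and natural killer cells and 0 of 6 for eosinophils passed the detection filter, which the peritoneal arrays could also meet. Of the marker genes, Pecam1, Col1a2, Postn, Myh7, Tnni3, Retnlg, Camp, Cd3e and Ms4a1 stayed at background on at least 1 array of each heart group. Others did not: Dcn, Sparc, Myl2, Myl3, Tnnc1, Ttn, Mmp9, Csf3r and Cd79b were above it on both arrays of both groups. Col1a1, Col3a1 and Col5a1 were above background on both MI heart arrays and neither intact heart array. Myh6 was above it on both intact heart arrays and neither MI heart array. Summed linear signal of the tested fibroblast markers was 335 and 334 in MI heart, against 223 and 203 in intact heart, with 4 of 9 higher and 0 lower. Between the heart groups, Col1a1, Col3a1, Col5a1 and Mgp could pass the filter through MI heart only. The filter thus favours a higher sum in MI heart, and the direction of this sum is no result. Col1a1, a chain of collagen I, had 5.32 and 5.26 in MI heart, against 4.28 and 4.22 in intact heart, at least 1.73-fold higher, adjusted p = 0.00503. Sparc, a collagen-binding matrix protein that macrophages can also make, had 6.35 and 6.32 in MI heart, against 5.13 and 4.87 in intact heart (1.33 ± 0.16, adjusted p = 0.00210). Tested cardiomyocyte markers summed to 250 and 256 in MI heart, against 355 and 400 in intact heart, with 0 of 10 higher and 2 lower, the ventricular myosin light chain Myl2 (-1.36 ± 0.21, adjusted p = 0.00584) and Myl3 (-0.84 ± 0.16, adjusted p = 0.0155). Of the tested markers, Myh6, Actn2, Mb, Nppa and Des were above background on both arrays of intact heart but not of MI heart. The filter thus favours a higher sum in intact heart, and the direction of this sum is no result. Tested neutrophil markers summed to 293 and 139 in MI heart, against 132 and 111 in intact heart, and S100a9 alone was called among them (at least 3.58-fold higher, adjusted p = 0.0355). S100a9 is part of this sum and was above background on neither intact heart array. Of 10 mast cell and basophil markers Hdc alone passed the filter, the histidine decarboxylase that macrophages also make, and it was higher (2.24 ± 0.27, adjusted p = 0.00187). The part of these cells in the results below was not tested. Col1a1, Myl3 and S100a9 missed the threshold without MI heart replicate 1 (adjusted p between 0.0581 and 0.0807). Myl2 and Myl3 lost the call without MI heart replicate 2 (adjusted p between 0.0720 and 0.127). S100a9 fell short of the threshold without either intact heart array or either peritoneal array (adjusted p between 0.0867 and 0.0963). The call of S100a9 was lost under 8 and those of Myl2, Myl3 and Hdc under 1 to 3 of 14 or 15 other settings.

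The share of members called differed widely between functions. Over 75 lists of genes with a shared role, the largest shares of tested members called were for monocyte genes, glycolysis and heat-shock chaperones, while translation, autophagy, the vacuolar proton pump and the chaperonin had no called member. A share near the 4.55% higher and 4.96% lower of all tests is no result about a list. That was so for the 1 higher of 24 cytosolic ribosome genes, the 1 higher of 20 TGF-beta pathway genes, the 2 higher of 29 Toll-like receptor genes and adaptors and the 1 lower of 28 splicing factors. Counts of 1 were seldom stable, and 30 of 39 such counts were lost in at least 1 fit without an array. Several called genes stand in more than 1 list, among them Bhlhe40, Vegfa, Ddit4 and Cd163, so counts of different lists are not independent.

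**Figure D2:**
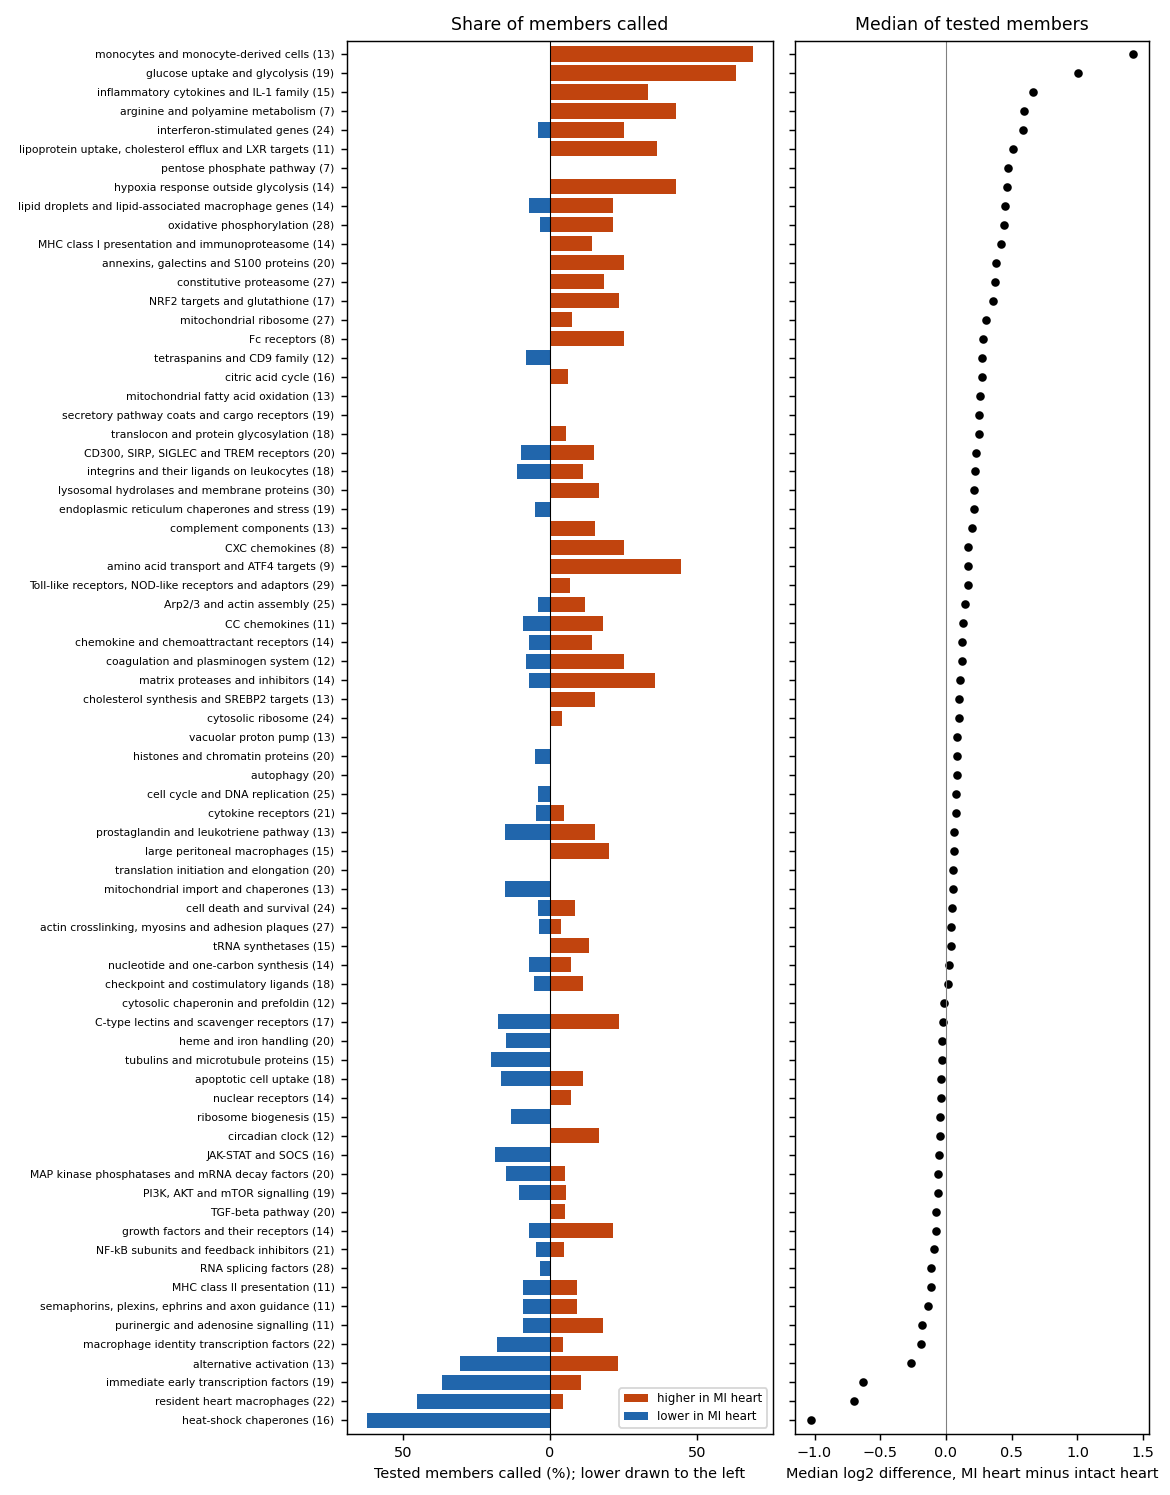
Each row is a list of genes with a shared role, with the number of tested members in brackets, for the lists of at least 7 reported here. The left panel gives the percentage of tested members called higher (orange, to the right) and lower (blue, to the left) in MI heart, and the right panel the median log2 difference of tested members. Rows are ordered by that median, from monocyte genes (1.42) at the top to heat-shock chaperones (-1.03) at the bottom.

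Genes of glucose uptake, of most glycolytic steps tested and of lactate export were higher in MI heart, but neither tested hexokinase gene was called. Of 19 tested genes of glucose uptake and glycolysis 12 were higher and 0 lower, with a median difference of 1.00. Slc2a1, the glucose transporter GLUT1, had 8.72 and 8.06 in MI heart, against 6.56 and 7.01 in intact heart (1.61 ± 0.27, adjusted p = 0.00809). Aldoa, the aldolase that splits the sugar, had 8.52 and 8.41 in MI heart, against 7.10 and 6.99 in intact heart (1.42 ± 0.16, adjusted p = 0.00131). Pgk1, which makes the first ATP of the pathway, had 8.14 and 7.50 in MI heart, against 5.50 and 6.25 in intact heart (1.95 ± 0.28, adjusted p = 0.00485). These groups of arrays were apart, as in every call and in 54.0% of all tests, and the same held at the end of the pathway. Pkm, the pyruvate kinase gene, had 8.77 and 8.34 in MI heart, against 7.03 and 6.93 in intact heart (1.57 ± 0.19, adjusted p = 0.00206). Ldha, which turns pyruvate into lactate, was among the 8 most abundant genes called higher, at 9.93 and 9.65 in MI heart, against 8.53 and 8.36 in intact heart (1.35 ± 0.17, adjusted p = 0.00270). Slc16a3, the lactate exporter MCT4, was at background in intact heart by the probe used, with 6.35 and 5.75 in MI heart, against 4.14 and 4.21 in intact heart, at least 2.94-fold higher, adjusted p = 0.00133. Pfkl, the liver-type phosphofructokinase, was also higher (1.75 ± 0.29, adjusted p = 0.00813), as were Slc2a6 (1.49 ± 0.19, adjusted p = 0.00270) and, more weakly, Gapdh (0.85 ± 0.22, adjusted p = 0.0471). Isoforms divided: the muscle form Pfkm (-0.31 ± 0.16, adjusted p = 0.266), the neuronal-type transporter Slc2a3 (-0.35 ± 0.15, adjusted p = 0.197) and Pdk1, the kinase that holds pyruvate back from mitochondria (-0.07 ± 0.22, adjusted p = 0.885), were not called. The hexokinase genes Hk1 and Hk3 were not called either, nor were Pfkfb3 and Pfkfb4. Differences in the list ran from -0.52 to 1.95. Slc2a1, Pgk1 and Gapdh missed the threshold without MI heart replicate 1 (adjusted p between 0.0603 and 0.268). Gapdh lost the call without MI heart replicate 2, intact heart replicate 2 or either peritoneal array (adjusted p between 0.0969 and 0.137). The calls of Pfkl and Gapdh were lost under 4 to 6 each and those of Slc2a1 and Pgk1 under 1 of 15 other settings. Over the fits without 1 array, 6 to 10 glycolysis genes were called higher (6 without MI heart replicate 1).

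**Figure D3:**
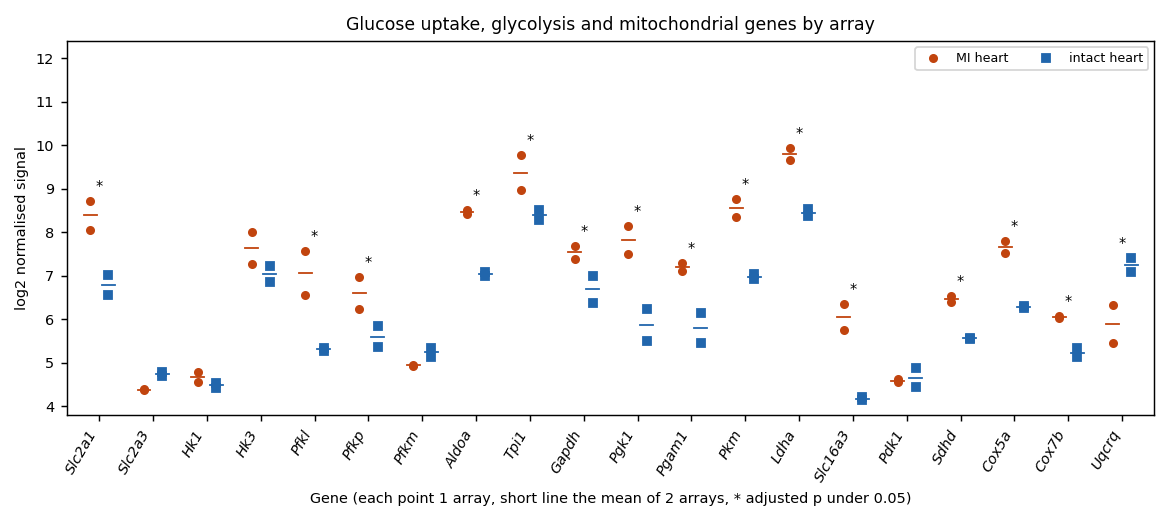
Genes are ordered from glucose transporters through glycolysis to mitochondrial complexes, with log2 normalised signal on the vertical axis. Each circle is 1 MI heart array and each square 1 intact heart array, the short lines are means of 2 arrays and asterisks mark an adjusted p under 0.05. Ldha lies at 9.93 and 9.65 in MI heart, against 8.53 and 8.36 in intact heart, while Hk1, Pfkm and Pdk1 stay near 5 in both.

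The promoters of Pgk1 and Ldha are shown because members of this list moved together and both genes are textbook targets of the hypoxia-inducible factor HIF-1, whose core site is ACGTG. The sequences are those of RefSeq on GRCm38.p6, from 250 bases before to 50 after the gene start, and capitals mark each ACGTG or its reverse complement CACGT, which overlap where both strands match. The motif was found in 8 of the 12 higher glycolysis genes and 4 of 6 other members with an entry, against 30.2% of all tested genes with a promoter entry and 19.6% of all 32851 promoters. Pgk1 is at chrX:106186850-106187149 and Ldha at chr7:46845554-46845853, both on the plus strand.
Pgk1: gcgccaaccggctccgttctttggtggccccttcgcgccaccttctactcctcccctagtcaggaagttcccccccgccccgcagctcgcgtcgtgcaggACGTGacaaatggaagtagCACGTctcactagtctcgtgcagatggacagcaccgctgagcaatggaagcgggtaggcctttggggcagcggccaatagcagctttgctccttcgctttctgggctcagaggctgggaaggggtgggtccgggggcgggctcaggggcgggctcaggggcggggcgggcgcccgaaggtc
Ldha: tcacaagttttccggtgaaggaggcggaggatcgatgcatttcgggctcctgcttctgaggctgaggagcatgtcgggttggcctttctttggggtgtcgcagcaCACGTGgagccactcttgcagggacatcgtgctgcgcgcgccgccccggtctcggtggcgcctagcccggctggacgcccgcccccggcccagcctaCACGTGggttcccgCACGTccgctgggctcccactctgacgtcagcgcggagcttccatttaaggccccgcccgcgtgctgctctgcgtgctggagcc
A match describes these letters and does not show that a factor binds there.

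Hypoxia-response genes outside glycolysis and genes of respiration were also in part higher. Of 14 tested genes of the hypoxia-response list 6 were higher and 0 lower. The glucose transporter Slc2a1 is among these 6 and was also counted in the list of glucose uptake and glycolysis. Hif1a, which encodes the oxygen-regulated subunit of HIF-1, had 6.00 and 6.13 in MI heart, against 4.93 and 4.88 in intact heart (1.15 ± 0.15, adjusted p = 0.00293). Vegfa, the growth factor of blood vessels, was not above background in intact heart, with 7.39 and 7.14 in MI heart, against 4.24 and 4.29 in intact heart, at least 6.82-fold higher, adjusted p = 4.43e-05. Of 28 tested genes of oxidative phosphorylation 6 were higher and 1 lower. Cox5a, a subunit of cytochrome oxidase, had 7.53 and 7.80 in MI heart, against 6.26 and 6.30 in intact heart (1.39 ± 0.17, adjusted p = 0.00201). Sdhd, which anchors succinate dehydrogenase in the membrane, was the one called of 16 tested citric acid cycle genes (0.90 ± 0.16, adjusted p = 0.00981). Uqcrq of complex III went the other way, with 6.34 and 5.45 in MI heart, against 7.41 and 7.09 in intact heart (-1.35 ± 0.27, adjusted p = 0.0171). Acod1, which turns the cycle's aconitate into itaconate, had 8.43 and 7.43 in MI heart, against 4.22 and 4.65 in intact heart, at least 10.2-fold higher, adjusted p = 0.000428. Of 7 tested genes of the pentose phosphate pathway 0 were higher and 0 lower, though 6 of these 7 differences were above 0, and its most abundant enzyme Taldo1 missed the threshold (0.66 ± 0.21, adjusted p = 0.0877). Of 13 tested genes of mitochondrial fatty acid oxidation 0 were higher and 0 lower. Sdhd missed the threshold without MI heart replicate 1 (adjusted p = 0.0656). Sdhd and Uqcrq lost the call without MI heart replicate 2 (adjusted p between 0.0902 and 0.0960). Uqcrq fell short of the threshold without intact heart replicate 1 or either peritoneal array (adjusted p between 0.0531 and 0.0698). The call of Uqcrq was lost under 4 of 15 other settings. With each array left out in turn, 2 to 5 hypoxia-response genes were called higher (2 without MI heart replicate 1, 3 without MI heart replicate 2) and 1 to 4 oxidative phosphorylation genes were called higher (1 without either MI heart array, 3 without intact heart replicate 1 or either peritoneal array).

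Some genes of amino acid transport and of arginine metabolism were higher. Of 9 tested amino acid transporters and ATF4 targets 4 were higher and 0 lower. Slc7a11, which imports cystine in exchange for glutamate and feeds glutathione synthesis, had 7.01 and 7.20 in MI heart, against 4.54 and 4.66 in intact heart (2.51 ± 0.16, adjusted p = 8.60e-05). Slc7a2, an importer of arginine and other cationic amino acids, had 5.61 and 5.74 in MI heart, against 4.24 and 4.65 in intact heart, at least 2.13-fold higher, adjusted p = 0.00521. Atf4, the stress-response regulator itself, was abundant and not called (-0.18 ± 0.25, adjusted p = 0.715). Of 7 tested genes of arginine and polyamine metabolism 3 were higher and 0 lower. Arg1, arginase 1, had 9.10 and 8.39 in MI heart, against 4.22 and 4.22 in intact heart, at least 19-fold higher, adjusted p = 4.43e-05. Smox, which oxidises spermine, had 7.69 and 7.56 in MI heart, against 5.91 and 6.29 in intact heart (1.52 ± 0.18, adjusted p = 0.00197). The arrays of the groups were apart for each of the 4 called genes, as in every call and in 54.0% of all tests. Odc1, the first enzyme of polyamine synthesis, was abundant and missed the threshold, with 8.82 and 8.86 in MI heart, against 8.30 and 8.20 in intact heart (0.59 ± 0.16, adjusted p = 0.0512). Slc7a2 missed the threshold without MI heart replicate 2 (adjusted p = 0.0633). In the fits without 1 array, 1 to 4 amino acid transport genes were called higher (1 without MI heart replicate 2, 2 without MI heart replicate 1 or intact heart replicate 1).

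Many heat-shock chaperones were lower in MI heart, and Hspa8, Hspa5 and Hspa9 were not called. Of 16 tested heat-shock chaperones 0 were higher and 10 lower, with a median difference of -1.03 and 1 difference above 0. Hspa1b, the stress-inducible HSP70, had 6.48 and 6.77 in MI heart, against 9.61 and 9.32 in intact heart (-2.84 ± 0.18, adjusted p = 8.60e-05). Hspb1, the small heat-shock protein HSP27 in the human, had 5.80 and 4.98 in MI heart, against 7.37 and 7.34 in intact heart (-1.96 ± 0.25, adjusted p = 0.00267). Hsph1, which exchanges the nucleotide on HSP70, had 8.51 and 8.43 in MI heart, against 10.20 and 10.62 in intact heart (-1.94 ± 0.22, adjusted p = 0.00143). Dnajb1 and Bag3 are co-chaperones that load and release HSP70 clients, and both were lower. Dnajb1 was among the 8 most abundant genes called lower, with 9.16 and 8.90 in MI heart, against 10.23 and 10.51 in intact heart (-1.34 ± 0.18, adjusted p = 0.00306). Bag3 differed by more, with 7.67 and 7.52 in MI heart, against 9.47 and 9.93 in intact heart (-2.10 ± 0.21, adjusted p = 0.000965). Hspd1, the mitochondrial chaperonin HSP60, had 5.96 and 5.53 in MI heart, against 7.49 and 7.94 in intact heart (-1.97 ± 0.21, adjusted p = 0.00125), and its partner Hspe1 was lower too (-1.04 ± 0.17, adjusted p = 0.00686). No MI heart array overlapped an intact heart array for these 7 genes, as in every call and in 54.0% of all tests. Hspa8, the constitutive HSP70 and the most abundant of the list, missed the threshold (-0.69 ± 0.22, adjusted p = 0.0812). It was called lower under 3 of 21 alternatives, so its difference from the inducible genes is not clear-cut. Hspa5, the HSP70 of the endoplasmic reticulum (-0.34 ± 0.19, adjusted p = 0.314), and Hspa9, that of mitochondria (-0.07 ± 0.15, adjusted p = 0.841), were not called, and of 12 tested cytosolic chaperonin and prefoldin genes 0 were higher and 0 lower. Hspe1 missed the threshold without MI heart replicate 1 (adjusted p = 0.0782). The calls of Hspb1 and Hspe1 were lost under 1 of 15 other settings. When each array was left out in turn, 6 to 10 heat-shock genes were called lower (6 without MI heart replicate 2).

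**Figure D4:**
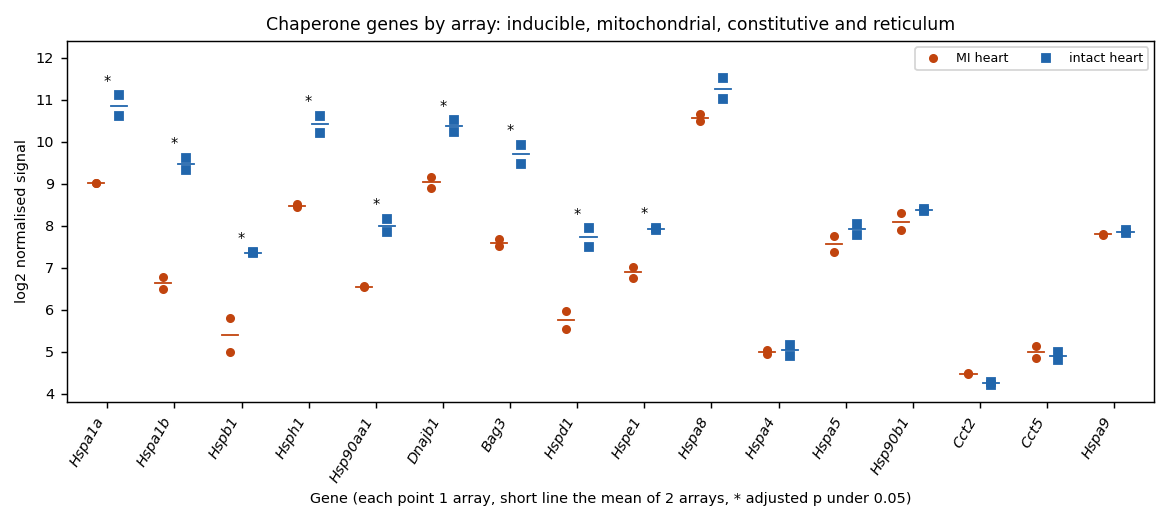
Log2 normalised signal of chaperone genes, from inducible forms on the left to mitochondrial, constitutive and reticulum forms on the right. Circles are MI heart arrays, squares intact heart arrays, short lines the means of 2 arrays and asterisks an adjusted p under 0.05. The inducible genes sit lower in MI heart, such as Bag3 at 7.67 and 7.52, against 9.47 and 9.93 in intact heart, whereas Hspa4 and Cct5 lie near 5 in both.

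The promoters of Hspa1b and Hspb1 show the site of the heat-shock factor HSF1, a pair of inverted repeats written here as GAANNTTC, which is its own reverse complement and is marked in capitals. It was found in 6 of the 9 lower members with a promoter entry and 2 of 5 other members, against 7.22% of all tested genes with an entry and 7.86% of all promoters. Hspa1b lies at chr17:34959189-34959488 on the minus strand and Hspb1 at chr5:135887669-135887968 on the plus strand, in RefSeq sequence on GRCm38.p6.
Hspa1b: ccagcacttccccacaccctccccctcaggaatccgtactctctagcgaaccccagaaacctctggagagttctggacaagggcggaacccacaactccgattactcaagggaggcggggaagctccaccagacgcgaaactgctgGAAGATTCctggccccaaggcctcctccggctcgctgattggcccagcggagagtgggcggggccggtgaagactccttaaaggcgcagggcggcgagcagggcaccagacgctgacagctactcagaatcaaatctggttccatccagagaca
Hspb1: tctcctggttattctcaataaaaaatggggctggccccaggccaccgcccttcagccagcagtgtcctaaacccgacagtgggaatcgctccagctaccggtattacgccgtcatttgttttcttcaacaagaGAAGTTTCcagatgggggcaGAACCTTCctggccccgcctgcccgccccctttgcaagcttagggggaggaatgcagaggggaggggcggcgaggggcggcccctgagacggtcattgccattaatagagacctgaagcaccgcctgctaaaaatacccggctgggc
The letters describe this window alone.

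Genes of protein synthesis gave few calls, and some genes of protein breakdown and presentation were higher. Of 20 tested genes of translation initiation and elongation 0 were higher and 0 lower, with its most abundant members Eef1a1 (0.07 ± 0.17, adjusted p = 0.847) and Eif4a2 (-0.17 ± 0.17, adjusted p = 0.589) near 0. Of 24 tested genes of the cytosolic ribosome 1 was higher and 0 lower, and of 27 tested genes of the mitochondrial ribosome 2 were higher and 0 lower. Of 15 tested genes of ribosome biogenesis 0 were higher and 2 lower. Nop58, a core protein of the particles that modify ribosomal RNA, had 6.46 and 5.62 in MI heart, against 7.63 and 8.48 in intact heart (-2.01 ± 0.33, adjusted p = 0.00758). Of 27 tested genes of the constitutive proteasome 5 were higher and 0 lower. Psmb6, a catalytic subunit, had 7.0 and 7.30 in MI heart, against 6.19 and 6.23 in intact heart (0.94 ± 0.17, adjusted p = 0.0109). Of 14 tested genes of MHC class I presentation and the immunoproteasome 2 were higher and 0 lower, both subunits of the immunoproteasome that cuts peptides for MHC class I, Psmb9 (0.89 ± 0.18, adjusted p = 0.0201) and Psmb10 (0.97 ± 0.26, adjusted p = 0.0496). Of 11 tested genes of MHC class II presentation 1 was higher and 1 lower. The higher one, Ifi30, a thiol reductase that opens antigens in lysosomes, had 7.67 and 7.83 in MI heart, against 6.75 and 6.45 in intact heart (1.15 ± 0.19, adjusted p = 0.00765). The lower one, H2-Ob, a chain of the H2-O molecule that restrains peptide loading, had 4.37 and 4.36 in MI heart, against 5.36 and 5.11 in intact heart, at least 1.74-fold lower, adjusted p = 0.0125. The invariant chain Cd74 was abundant and not called (-0.11 ± 0.19, adjusted p = 0.766). Psmb9, Psmb10, Ifi30 and H2-Ob missed the threshold without MI heart replicate 1 (adjusted p between 0.0595 and 0.293). Nop58, Psmb6, Psmb9, Psmb10, Ifi30 and H2-Ob lost the call without MI heart replicate 2 (adjusted p between 0.0720 and 0.0984). Psmb9 fell short of the threshold without intact heart replicate 1 (adjusted p = 0.0588). Psmb10 missed the threshold without intact heart replicate 2 or either peritoneal array (adjusted p between 0.0976 and 0.156). The call of Psmb10 was lost under 8 and those of Nop58, Psmb9 and Ifi30 under 1 of 15 other settings. Over the fits without 1 array, 0 to 5 proteasome genes were called higher (0 without MI heart replicate 2, 1 without MI heart replicate 1, 2 without intact heart replicate 1, 3 without either peritoneal array) and 0 to 1 class I presentation genes were called higher (0 without either MI heart array, 1 without either intact heart array or either peritoneal array). With each array left out in turn, 0 to 3 mitochondrial ribosome genes were called higher (0 without either MI heart array, 1 without either peritoneal array) and 0 to 2 ribosome biogenesis genes were called lower (0 without MI heart replicate 2, 1 without MI heart replicate 1 or intact heart replicate 1).

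Called genes of the lysosomal list were higher, and 3 lysosomal enzymes outside it were lower. Of 30 tested lysosomal hydrolases and membrane proteins 5 were higher and 0 lower. Scarb2, a lysosomal membrane protein that carries glucocerebrosidase, had 8.22 and 8.37 in MI heart, against 7.56 and 7.50 in intact heart (0.77 ± 0.16, adjusted p = 0.0184). Ctsd, the aspartic protease cathepsin D, had 5.65 and 5.92 in MI heart, against 4.94 and 4.86 in intact heart (0.89 ± 0.17, adjusted p = 0.0163). Outside the list, and chosen after their values were seen, Ctsf, the cysteine protease cathepsin F, had 5.06 and 5.33 in MI heart, against 6.88 and 6.74 in intact heart (-1.61 ± 0.17, adjusted p = 0.00117). Dpp7, a dipeptidyl peptidase (-1.58 ± 0.18, adjusted p = 0.00162), and Dnase2a, which digests DNA of engulfed cells (-1.44 ± 0.20, adjusted p = 0.00323), were also lower. Of 13 tested genes of the vacuolar proton pump 0 were higher and 0 lower, and of 20 tested genes of autophagy 0 were higher and 0 lower. Scarb2 and Ctsd missed the threshold without either MI heart array (adjusted p between 0.0661 and 0.138). The calls of Scarb2, Ctsd and Dnase2a were lost under 1 of 15 other settings. In the fits without 1 array, 0 to 4 lysosomal genes were called higher (0 without either MI heart array, 3 without intact heart replicate 1 or either peritoneal array).

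Called lipid genes were mostly higher and called iron genes lower. Of 11 tested lipoprotein and cholesterol efflux genes 4 were higher and 0 lower. Nr1h3, the sterol-sensing nuclear receptor LXR-alpha, had 7.18 and 6.26 in MI heart, against 4.66 and 4.49 in intact heart (2.14 ± 0.28, adjusted p = 0.00293). Of 14 tested lipid droplet and lipid-associated macrophage genes 3 were higher and 1 lower. Gpnmb, a membrane glycoprotein of lipid-laden macrophages, had 9.71 and 10.25 in MI heart, against 5.77 and 6.52 in intact heart (3.84 ± 0.27, adjusted p = 0.000141). Trem2, a lipid receptor of the same cells, missed the threshold, with 7.17 and 7.76 in MI heart, against 6.49 and 6.55 in intact heart (0.95 ± 0.32, adjusted p = 0.102). Of 20 tested genes of heme and iron handling 0 were higher and 3 lower. Slc40a1, the iron exporter ferroportin, had 6.21 and 6.5 in MI heart, against 8.02 and 7.86 in intact heart (-1.58 ± 0.17, adjusted p = 0.00119). Cd163, the receptor for haemoglobin bound to haptoglobin, was the third most abundant gene called lower, with 9.33 and 9.39 in MI heart, against 10.55 and 10.41 in intact heart (-1.12 ± 0.27, adjusted p = 0.0332). Hmox1, which breaks down heme, was lower as well (-0.75 ± 0.20, adjusted p = 0.0466), while the storage subunit Fth1 (0.22 ± 0.19, adjusted p = 0.529) was not called. Spic, the transcription factor of iron-recycling macrophages in mice, had 4.51 and 4.50 in MI heart, against 5.69 and 5.89 in intact heart (-1.29 ± 0.18, adjusted p = 0.00384). Of 17 tested NRF2 targets and glutathione genes 4 were higher and 0 lower, among them the peroxidases Gpx1 (0.76 ± 0.17, adjusted p = 0.0284) and Gpx4 (0.80 ± 0.18, adjusted p = 0.0268). Cd163, Hmox1, Gpx1 and Gpx4 missed the threshold without either MI heart array or intact heart replicate 1 (adjusted p between 0.0773 and 0.271). Cd163 and Hmox1 lost the call without intact heart replicate 2 (adjusted p between 0.0656 and 0.0708). Hmox1 and Gpx1 fell short of the threshold without either peritoneal array (adjusted p between 0.0644 and 0.0827). The calls of Hmox1 and Gpx1 were lost under 5 to 10 each and those of Nr1h3, Cd163 and Gpx4 under 1 to 3 of 14 or 15 other settings. When each array was left out in turn, 1 to 3 lipoprotein and efflux genes were called higher (1 without either MI heart array, 2 without either peritoneal array) and 1 to 4 lipid droplet and lipid-associated genes were called higher (1 without either MI heart array). Over the fits without 1 array, 1 to 2 heme and iron genes were called lower (1 without either MI heart array or intact heart replicate 2) and 0 to 3 NRF2 and glutathione genes were called higher (0 without MI heart replicate 1, 1 without MI heart replicate 2 or intact heart replicate 1, 2 without either peritoneal array).

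Receptor genes were called in both directions. Of 17 tested C-type lectins and scavenger receptors 4 were higher and 3 lower, of 14 tested chemokine and chemoattractant receptors 2 were higher and 1 lower, and of 20 tested CD300, SIRP, SIGLEC and TREM receptors 3 were higher and 2 lower. Of 8 tested Fc receptors 2 were higher and 0 lower. Among the higher ones, Fcgr4, an activating receptor for IgG, had 11.06 and 10.39 in MI heart, against 8.72 and 8.22 in intact heart (2.26 ± 0.28, adjusted p = 0.00248). Clec4d, a lectin receptor for mycobacterial glycolipid, had 8.31 and 7.89 in MI heart, against 4.80 and 5.61 in intact heart (2.90 ± 0.27, adjusted p = 0.000579). Marco, a scavenger receptor for bacteria and particles, had 6.40 and 6.48 in MI heart, against 4.33 and 4.42 in intact heart, at least 3.85-fold higher, adjusted p = 0.000579. Each was apart between the groups, as in every call and in 54.0% of all tests. Several of these receptors are also made by neutrophils. Of neutrophil markers, Retnlg and Camp stayed at background on at least 1 array of each heart group. Mmp9 and Csf3r were above background on both arrays of both groups, and S100a9 was called higher. The part of neutrophils in these values was not tested. Fpr2, the formyl peptide receptor, had 7.85 and 7.14 in MI heart, against 4.73 and 4.69 in intact heart (2.78 ± 0.24, adjusted p = 0.000405). Ccrl2, which binds chemerin and presents it to other cells, had 9.26 and 9.01 in MI heart, against 7.68 and 7.61 in intact heart (1.49 ± 0.17, adjusted p = 0.00135). Csf2rb, the beta chain shared by the receptors of GM-CSF and its relatives, had 6.60 and 6.74 in MI heart, against 5.41 and 4.95 in intact heart (1.49 ± 0.20, adjusted p = 0.00314). In the same direction, Trem1, an amplifier of inflammatory signals, had 6.23 and 5.72 in MI heart, against 4.15 and 4.22 in intact heart, at least 2.79-fold higher, adjusted p = 0.00131, and Cd300lf, an inhibitory receptor that senses phospholipids, 7.92 and 7.92 in MI heart, against 4.37 and 4.22 in intact heart, at least 10.7-fold higher, adjusted p = 0.000158. The call of Fcgr4 was lost under 1 of 15 other settings. With each array left out in turn, 2 to 6 lectin and scavenger receptor genes were called higher (2 without MI heart replicate 1), 1 to 2 were called lower (1 without either MI heart array or intact heart replicate 1), and 2 chemoattractant receptor genes were called higher. In the fits without 1 array, 3 to 4 CD300, SIRP, SIGLEC and TREM genes were called higher, 1 to 2 were called lower (1 without MI heart replicate 1), and 1 to 2 Fc receptor genes were called higher (1 without either MI heart array).

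Other receptor genes were lower. Mgl2, a galactose-type lectin, had 5.89 and 5.88 in MI heart, against 7.24 and 7.67 in intact heart (-1.57 ± 0.21, adjusted p = 0.00293), whereas its close relative Clec10a was not called. Siglech, a sialic-acid lectin best known from plasmacytoid dendritic cells, had 4.57 and 4.48 in MI heart, against 5.83 and 5.72 in intact heart (-1.26 ± 0.16, adjusted p = 0.00280). Of 11 tested genes of purinergic and adenosine signalling 2 were higher and 1 lower. P2rx7, the ATP-gated channel that can trigger the inflammasome, had 5.92 and 5.98 in MI heart, against 7.22 and 7.13 in intact heart (-1.23 ± 0.16, adjusted p = 0.00293). Another ATP-gated channel, P2rx4, went the other way (0.83 ± 0.19, adjusted p = 0.0308), as did the nucleotide sugar receptor P2ry14 (at least 1.49-fold higher, adjusted p = 0.0401). Cx3cr1, the fractalkine receptor, had 5.66 and 5.78 in MI heart, against 6.68 and 6.62 in intact heart (-0.93 ± 0.15, adjusted p = 0.00819). These groups did not overlap for any called gene, as in every call and in 54.0% of all tests. Among 29 Toll-like and NOD-like receptor genes and adaptors 2 were higher and 0 lower, and Tlr2 (0.24 ± 0.22, adjusted p = 0.559) and Tlr4 (0.40 ± 0.19, adjusted p = 0.224) were not called. Of 18 tested genes of apoptotic cell uptake 2 were higher and 3 lower. Axl, a receptor kinase for dying cells, had 7.21 and 7.51 in MI heart, against 8.55 and 8.01 in intact heart (-0.92 ± 0.21, adjusted p = 0.0296). Gas6, the ligand of Axl and Mertk, was also lower, with 6.93 and 7.28 in MI heart, against 8.22 and 8.11 in intact heart (-1.06 ± 0.17, adjusted p = 0.00781), while Mertk was not called (0.13 ± 0.30, adjusted p = 0.841). Cd274, the checkpoint ligand PD-L1, had 6.98 and 6.18 in MI heart, against 4.61 and 4.54 in intact heart (2.00 ± 0.25, adjusted p = 0.00226). P2rx4, P2ry14, Cx3cr1, Axl and Gas6 missed the threshold without MI heart replicate 1 (adjusted p between 0.0798 and 0.20). P2rx4, P2ry14, Cx3cr1 and Axl lost the call without MI heart replicate 2 (adjusted p between 0.0597 and 0.188). P2rx4, P2ry14 and Axl fell short of the threshold without intact heart replicate 1 or either peritoneal array (adjusted p between 0.0654 and 0.127). The calls of P2ry14 and Axl were lost under 7 to 8 each and those of P2rx4, Cx3cr1 and Cd274 under 1 to 3 of 14 or 15 other settings. When each array was left out in turn, 1 to 2 uptake genes were called higher (1 without either MI heart array), 1 to 3 were called lower (1 without MI heart replicate 1), and 0 to 2 purinergic genes were called higher (0 without either MI heart array, intact heart replicate 1 or either peritoneal array).

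**Figure D5:**
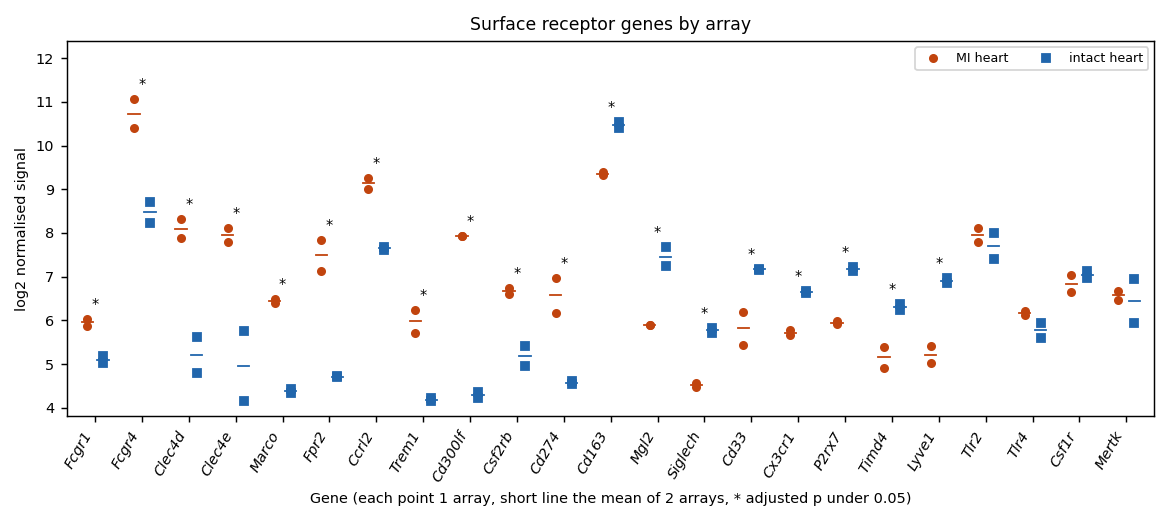
Log2 normalised signal of receptor genes, with those higher in MI heart on the left, those lower in the middle and receptors that were not called on the right. Circles are MI heart arrays, squares intact heart arrays, short lines means of 2 arrays and asterisks an adjusted p under 0.05. Fpr2 lies at 7.85 and 7.14 in MI heart, against 4.73 and 4.69 in intact heart, while the arrays of Tlr2 overlap.

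Secreted signals called higher included both inflammatory and growth factors. Of 15 tested genes of inflammatory cytokines and the IL-1 family 5 were higher and 0 lower. Osm, oncostatin M, was the most abundant gene called higher, with 10.61 and 10.67 in MI heart, against 9.56 and 9.61 in intact heart (1.05 ± 0.17, adjusted p = 0.00765). Il1rn and Il1r2 both restrain interleukin-1, as a soluble antagonist and a decoy receptor. Il1rn had 7.89 and 8.02 in MI heart, against 6.33 and 6.69 in intact heart (1.45 ± 0.18, adjusted p = 0.00243). Il1r2 had 6.87 and 6.70 in MI heart, against 5.51 and 4.95 in intact heart (1.56 ± 0.21, adjusted p = 0.00304). Il1a rose beside them (1.21 ± 0.19, adjusted p = 0.00691), and Il1b (0.28 ± 0.20, adjusted p = 0.435) and Tnf (0.19 ± 0.20, adjusted p = 0.605) were not called. Il10 differed by nearly as much as Il1a and missed the threshold, with 9.27 and 9.85 in MI heart, against 7.84 and 8.93 in intact heart (1.17 ± 0.33, adjusted p = 0.0598). Nrg1, the neuregulin that acts on ErbB receptors of heart muscle, had 7.43 and 6.66 in MI heart, against 4.41 and 4.34 in intact heart, at least 5.85-fold higher, adjusted p = 0.000550. Inhba, which forms activin A, was the one called of 20 TGF-beta pathway genes, with 7.78 and 7.40 in MI heart, against 4.64 and 4.80 in intact heart (2.87 ± 0.18, adjusted p = 8.60e-05). Igf1, the growth factor of resident macrophages, was not called (-0.64 ± 0.19, adjusted p = 0.0713). Of chemokines, Ccl8 had 6.28 and 6.44 in MI heart, against 4.36 and 4.19 in intact heart, at least 3.63-fold higher, adjusted p = 0.000225, and Ccl24, which attracts eosinophils, had 4.54 and 4.42 in MI heart, against 5.80 and 5.80 in intact heart, at least 2.48-fold lower, adjusted p = 0.00244. Abundant chemokine genes such as Cxcl1 (0.08 ± 0.18, adjusted p = 0.833) and Ccl4 (0.13 ± 0.17, adjusted p = 0.716) were not called. Osm and Il1a missed the threshold without either MI heart array (adjusted p between 0.0597 and 0.0793). The call of Il1a was lost under 1 of 15 other settings. Over the fits without 1 array, 3 to 6 cytokine genes were called higher (3 without either MI heart array).

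Genes for proteins that build, cut or clot the matrix were mostly higher where called. Of 14 tested matrix proteases and inhibitors 5 were higher and 1 lower. Mmp14, a membrane-bound collagenase, had 7.38 and 7.14 in MI heart, against 4.90 and 4.51 in intact heart (2.55 ± 0.18, adjusted p = 0.000158). Timp1, which inhibits such enzymes, had 6.11 and 5.78 in MI heart, against 4.48 and 4.66 in intact heart, at least 2.57-fold higher, adjusted p = 0.00248. Mmp13, the main interstitial collagenase of mice, went the other way, with 6.96 and 6.42 in MI heart, against 7.97 and 8.45 in intact heart (-1.52 ± 0.23, adjusted p = 0.00586). Of 12 tested genes of the coagulation and plasminogen system 3 were higher and 1 lower. F10, coagulation factor X, had 9.96 and 9.04 in MI heart, against 5.54 and 5.14 in intact heart (4.16 ± 0.28, adjusted p = 0.000131). Thbs1, thrombospondin 1, had 7.69 and 7.54 in MI heart, against 4.25 and 4.71 in intact heart, at least 8.02-fold higher, adjusted p = 0.000269. Cfb, complement factor B of the alternative pathway, had 6.69 and 6.49 in MI heart, against 4.73 and 4.48 in intact heart (1.99 ± 0.18, adjusted p = 0.000579), while the chain genes of C1q, led by C1qb (0.26 ± 0.17, adjusted p = 0.406), were not called. Serpinf1, the vessel-restraining factor PEDF, was the second largest decrease among genes detected in both groups, with 6.70 and 6.43 in MI heart, against 9.02 and 9.40 in intact heart (-2.65 ± 0.19, adjusted p = 0.000141). In the making of prostaglandins, Ptgs2, cyclooxygenase 2, had 6.87 and 6.12 in MI heart, against 4.52 and 4.75 in intact heart (1.85 ± 0.24, adjusted p = 0.00270). Alox5, which starts leukotriene synthesis, had 5.78 and 5.48 in MI heart, against 7.20 and 6.91 in intact heart (-1.42 ± 0.20, adjusted p = 0.00376). Some fibroblast markers were above background in MI heart, as given above, and the part of fibroblasts here was not tested. Mmp13 and Alox5 missed the threshold without MI heart replicate 2 (adjusted p between 0.0529 and 0.0656). The calls of Mmp13 and Ptgs2 were lost under 1 to 2 of 14 or 15 other settings. With each array left out in turn, 4 to 5 matrix protease genes were called higher.

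Calls among cytoskeletal genes fell on regulators and single isoforms. Tmsb10, thymosin beta 10, which binds actin monomers, had 10.16 and 9.80 in MI heart, against 7.78 and 8.0 in intact heart (2.09 ± 0.18, adjusted p = 0.000489), while actin itself, Actb (0.01 ± 0.17, adjusted p = 0.984), and the related Tmsb4x (0.18 ± 0.25, adjusted p = 0.707) were not called. Capg, which caps actin filaments, was higher (1.05 ± 0.16, adjusted p = 0.00527). Cdc42ep4, an effector of Cdc42, had 7.52 and 7.69 in MI heart, against 6.28 and 6.38 in intact heart (1.28 ± 0.16, adjusted p = 0.00226). Of 15 tested tubulins and microtubule proteins 0 were higher and 3 lower. Tubb2b, a beta-tubulin best known from neurons, had 5.97 and 5.43 in MI heart, against 7.94 and 7.67 in intact heart (-2.11 ± 0.24, adjusted p = 0.00139), while the widely expressed Tubb5 (0.21 ± 0.24, adjusted p = 0.655) was not called. Among integrins, Itgb7, the beta-7 chain, had 7.49 and 6.81 in MI heart, against 4.33 and 4.22 in intact heart, at least 6.30-fold higher, adjusted p = 0.000355, and Icam1, a ligand of leukocyte integrins, was lower (-0.85 ± 0.15, adjusted p = 0.0119). Of 20 tested annexins, galectins and S100 proteins 5 were higher and 0 lower, among them S100a4, a calcium-binding protein of motile cells (1.30 ± 0.23, adjusted p = 0.0112). S100a9, a marker shared with neutrophils, had 7.25 and 5.42 in MI heart, against 4.43 and 4.41 in intact heart, with its MI heart arrays far apart. The tested neutrophil markers summed to 293 on the first of these arrays and 139 on the second. That sum contains S100a9 itself, so it is no separate measure of neutrophils, and their part in the S100a9 value was not tested. Capg, Icam1, S100a4 and S100a9 missed the threshold without MI heart replicate 1 (adjusted p between 0.0541 and 0.0973). Icam1 and S100a4 lost the call without MI heart replicate 2 (adjusted p between 0.0828 and 0.112). S100a9 fell short of the threshold without either intact heart array or either peritoneal array (adjusted p between 0.0867 and 0.0963). The call of S100a9 was lost under 8 and those of Icam1 and S100a4 under 1 of 14 or 15 other settings. In the fits without 1 array, 1 to 3 microtubule genes were called lower (1 without either MI heart array) and 0 to 3 annexin, galectin and S100 genes were called higher (0 without MI heart replicate 1, 2 without MI heart replicate 2, 3 without either intact heart array or either peritoneal array).

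Transcription factors of the first response to stimulation were more often called lower than higher in the main fit, which depended on how arrays were scaled. Of 19 tested immediate early transcription factors 2 were higher and 7 lower, with a median difference of -0.63. Jun, a subunit of the AP-1 complex, had 6.76 and 6.72 in MI heart, against 8.04 and 8.0 in intact heart (-1.28 ± 0.20, adjusted p = 0.00684). Fos, its partner, had 7.32 and 7.37 in MI heart, against 8.37 and 8.12 in intact heart (-0.90 ± 0.18, adjusted p = 0.0183). Atf3, which represses inflammatory genes, had 6.19 and 6.08 in MI heart, against 7.15 and 7.13 in intact heart (-1.00 ± 0.16, adjusted p = 0.00621). Klf6 was the most abundant gene called lower, with 10.92 and 10.93 in MI heart, against 11.57 and 11.65 in intact heart (-0.69 ± 0.17, adjusted p = 0.0354). The orphan nuclear receptor Nr4a2 was higher, with 7.45 and 7.22 in MI heart, against 5.89 and 6.18 in intact heart (1.30 ± 0.17, adjusted p = 0.00296). Egr1, an early growth response factor, missed the threshold, with 9.61 and 8.48 in MI heart, against 10.34 and 9.99 in intact heart (-1.12 ± 0.32, adjusted p = 0.0639), and Junb (0.04 ± 0.16, adjusted p = 0.915) was not called. Of 22 tested macrophage identity transcription factors 1 was higher and 4 lower. Bhlhe40, a repressor that shapes cytokine output, had 6.86 and 6.89 in MI heart, against 4.40 and 5.17 in intact heart, at least 4.07-fold higher, adjusted p = 0.00153. Mef2c, a factor of muscle and myeloid cells, was lower (-1.60 ± 0.24, adjusted p = 0.00518), as was Runx1 (-0.99 ± 0.15, adjusted p = 0.00560). The lineage regulator Spi1, which encodes PU.1, was not called (0.48 ± 0.23, adjusted p = 0.248). Jun, Fos, Atf3, Klf6 and Runx1 missed the threshold without either MI heart array (adjusted p between 0.0502 and 0.175). Fos and Klf6 lost the call without intact heart replicate 1 (adjusted p between 0.0678 and 0.0711). Klf6 fell short of the threshold without intact heart replicate 2 or either peritoneal array (adjusted p between 0.0556 and 0.0842). The call of Klf6 was lost under 5 and those of Jun, Fos, Atf3, Mef2c and Runx1 under 1 to 2 of 15 other settings. Many of these losses came together. With arrays scaled to a common median, Jun, Fos, Fosb, Atf3, Klf2 and Klf6 all lost the call. Of the 7 lower immediate early genes Jund alone then kept it, while Nr4a2 and Nr4a3 stayed higher. The median of the list was then -0.345. When each array was left out in turn, 1 to 2 immediate early genes were called higher (1 without MI heart replicate 2), 0 to 7 were called lower (0 without MI heart replicate 2, 1 without MI heart replicate 1, 3 without intact heart replicate 1, 4 without either peritoneal array), and 2 to 4 identity factor genes were called lower (2 without either MI heart array).

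Lists of signalling genes gave few calls, and some interferon targets were higher. Of 24 tested interferon-stimulated genes 6 were higher and 1 lower. Rsad2, the antiviral protein viperin, had 8.35 and 8.32 in MI heart, against 6.75 and 6.77 in intact heart (1.58 ± 0.16, adjusted p = 0.000818). Ifit2, which binds foreign RNA, had 8.03 and 8.07 in MI heart, against 6.76 and 6.56 in intact heart (1.39 ± 0.16, adjusted p = 0.00143). Oas2, a sensor of double-stranded RNA, was lower (-0.80 ± 0.18, adjusted p = 0.0285). Of 16 tested JAK-STAT and SOCS genes 0 were higher and 3 lower, among them Stat5a (-0.94 ± 0.17, adjusted p = 0.0124). Sgk1, a kinase induced by glucocorticoids and salt, had 9.14 and 9.30 in MI heart, against 7.05 and 7.18 in intact heart (2.10 ± 0.17, adjusted p = 0.000269). Tsc22d3, another glucocorticoid-induced gene known as GILZ, was lower (-0.84 ± 0.19, adjusted p = 0.0303). Dusp5 and Dusp8, phosphatases of MAP kinases, moved apart, Dusp5 with 7.61 and 7.45 in MI heart, against 5.52 and 6.35 in intact heart (1.60 ± 0.25, adjusted p = 0.00656) and Dusp8 with 6.38 and 6.14 in MI heart, against 8.11 and 7.55 in intact heart (-1.57 ± 0.21, adjusted p = 0.00312). Of 21 tested NF-kB genes 1 was higher and 1 lower, and the feedback inhibitor Nfkbia was abundant and near 0 (0.06 ± 0.25, adjusted p = 0.923). Of 25 tested genes of cell cycle and DNA replication 0 were higher and 1 lower, and of 28 tested RNA splicing factors 0 were higher and 1 lower. Oas2, Stat5a, Tsc22d3 and Dusp5 missed the threshold without either MI heart array (adjusted p between 0.0600 and 0.203). Tsc22d3 lost the call without intact heart replicate 1 or either peritoneal array (adjusted p between 0.0614 and 0.106). Oas2 fell short of the threshold without intact heart replicate 2 (adjusted p = 0.0868). The call of Tsc22d3 was lost under 5 and those of Oas2, Stat5a, Dusp5 and Dusp8 under 1 to 3 of 15 other settings. Over the fits without 1 array, 3 to 6 interferon-stimulated genes were called higher (3 without MI heart replicate 1) and 0 to 2 JAK-STAT genes were called lower (0 without either MI heart array, 1 without either peritoneal array).

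Further groups gave a few calls each. Sema4d, a semaphorin of leukocytes, had 5.94 and 5.92 in MI heart, against 4.57 and 4.31 in intact heart, at least 2.66-fold higher, adjusted p = 0.00131. Mlkl, which opens the membrane in necroptosis, had 5.94 and 5.63 in MI heart, against 4.64 and 4.32 in intact heart, at least 2.35-fold higher, adjusted p = 0.00466. Bcl2, which holds off apoptosis, had 5.58 and 4.79 in MI heart, against 6.47 and 6.23 in intact heart (-1.16 ± 0.25, adjusted p = 0.0247). Cd81, a tetraspanin, was lower (-1.25 ± 0.27, adjusted p = 0.0230). Of 14 tested genes of growth factors and their receptors 3 were higher and 1 lower, and Igfbp4, a binding protein of insulin-like growth factors, had 6.10 and 6.15 in MI heart, against 7.53 and 7.21 in intact heart (-1.25 ± 0.17, adjusted p = 0.00310). Of 12 tested genes of the circadian clock 2 were higher and 0 lower, and of 19 tested genes of endoplasmic reticulum chaperones and stress 0 were higher and 1 lower. Mlkl and Cd81 missed the threshold without MI heart replicate 1 (adjusted p between 0.0607 and 0.116). Bcl2 and Cd81 lost the call without MI heart replicate 2 or intact heart replicate 1 (adjusted p between 0.0878 and 0.171). Bcl2 fell short of the threshold without either peritoneal array (adjusted p = 0.0614). The calls of Bcl2 and Cd81 were lost under 4 to 8 each of 15 other settings. Of the clock genes, 1 was called higher in every fit without 1 array.

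The most abundant called genes changed by less than the extremes. Of the 8 most abundant genes called higher, those not yet described were Mif, an inflammatory cytokine (1.66 ± 0.28, adjusted p = 0.00916), Psma2, a proteasome subunit (0.73 ± 0.17, adjusted p = 0.0301), and Agpat4, an enzyme of phospholipid synthesis (1.39 ± 0.22, adjusted p = 0.00669). Mif had 10.47 and 9.70 in MI heart, against 8.68 and 8.17 in intact heart. Of the 8 most abundant called lower, those not yet described were Hspa1a (-1.84 ± 0.24, adjusted p = 0.00271), Cd83, a surface protein of activated antigen-presenting cells (-0.67 ± 0.16, adjusted p = 0.0329), Fnbp1, which bends membranes (-0.74 ± 0.16, adjusted p = 0.0220), Rgs10, which shortens G protein signals (-0.77 ± 0.16, adjusted p = 0.0220), and Lilr4b, a receptor of the leukocyte immunoglobulin-like family (-0.86 ± 0.22, adjusted p = 0.0429). Lilr4b had 9.23 and 8.87 in MI heart, against 9.66 and 10.16 in intact heart, the narrowest gap of these genes. Mif, Psma2, Agpat4, Cd83, Fnbp1, Rgs10 and Lilr4b missed the threshold without MI heart replicate 1 (adjusted p between 0.0791 and 0.197). Psma2, Cd83, Fnbp1, Rgs10 and Lilr4b lost the call without MI heart replicate 2 (adjusted p between 0.0793 and 0.270). Psma2, Fnbp1 and Rgs10 fell short of the threshold without intact heart replicate 1 (adjusted p between 0.0501 and 0.0655). Psma2, Cd83, Fnbp1 and Lilr4b missed the threshold without intact heart replicate 2 (adjusted p between 0.0527 and 0.134). Psma2, Cd83 and Lilr4b lost the call without either peritoneal array (adjusted p between 0.0644 and 0.0795). The calls of Psma2, Cd83 and Lilr4b were lost under 4 to 9 each and those of Mif, Agpat4, Hspa1a, Fnbp1 and Rgs10 under 1 to 3 of 15 other settings.

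Of the called differences, 560 were of less than 2-fold, and 413 of these were of named genes. Idh1, the cytosolic isocitrate dehydrogenase that makes NADPH, had 6.93 and 7.09 in MI heart, against 6.04 and 6.00 in intact heart (0.99 ± 0.16, adjusted p = 0.00675). Shisa5, a membrane protein linked to cell death, had 8.16 and 8.10 in MI heart, against 7.21 and 7.15 in intact heart (0.95 ± 0.16, adjusted p = 0.00891). Of the 6 with the smallest p in each direction, Atp11b, a lipid flippase (0.96 ± 0.15, adjusted p = 0.00684), Nt5c3, a pyrimidine nucleotidase (0.91 ± 0.15, adjusted p = 0.00787), and Ndufa11 of complex I (at least 1.92-fold higher, adjusted p = 0.00939) were higher. Asgr2, a subunit of the asialoglycoprotein receptor (at least 1.90-fold lower, adjusted p = 0.00684), the transcription factor Creb5 (-0.98 ± 0.16, adjusted p = 0.00814), the oxygen-dependent hydroxylase Jmjd6 (-0.93 ± 0.16, adjusted p = 0.00930) and the mitochondrial membrane protein Stoml2 (at least 1.95-fold lower, adjusted p = 0.00938) were lower. Shisa5, Atp11b, Nt5c3, Ndufa11, Asgr2, Jmjd6 and Stoml2 missed the threshold without MI heart replicate 1 (adjusted p between 0.0610 and 0.0879). Idh1, Shisa5, Atp11b, Nt5c3, Ndufa11, Asgr2, Creb5, Jmjd6 and Stoml2 lost the call without MI heart replicate 2 (adjusted p between 0.0542 and 0.0860). The calls of Creb5 and Jmjd6 were lost under 1 of 15 other settings.

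Detection itself changed for 153 of 8244 tested named genes. These had a probe at a detection p under 0.01 on both MI heart arrays and no probe under 0.05 on either intact heart array. The other way round, detection changed for 29. Genes described here for such a switch were picked by this contrast, so their adjusted p is no separate evidence of it. MI heart arrays had more probes above background in all, and the part of this in the counts was not tested. The brightest of the 153 included Igf2r, the receptor of mannose 6-phosphate and insulin-like growth factor 2, with 7.97 and 7.64 in MI heart, against 4.22 and 4.47 in intact heart, at least 9.91-fold higher, adjusted p = 4.43e-05. Chil3, a chitinase-like protein, had 6.74 and 8.30 in MI heart, against 4.16 and 4.37 in intact heart, at least 8.11-fold higher, adjusted p = 0.00384, with its MI heart arrays far apart. The brightest of the 29 were Fam83g (at least 2.71-fold lower, adjusted p = 0.0109), Hpgd, which inactivates prostaglandins, and Raver2, an RNA-binding protein. Hpgd had 4.33 and 4.41 in MI heart, against 5.51 and 6.19 in intact heart, at least 2.66-fold lower, adjusted p = 0.00528. Raver2 had 4.34 and 4.29 in MI heart, against 5.94 and 5.73 in intact heart, at least 2.63-fold lower, adjusted p = 0.00109. Hspa1l, a relative of HSP70, was also among them, with 4.42 and 4.35 in MI heart, against 5.93 and 5.43 in intact heart, at least 2.36-fold lower, adjusted p = 0.00672. Of the large decreases among genes detected in both groups, Dcbld2, a membrane protein that resembles neuropilins, had 4.91 and 4.70 in MI heart, against 7.57 and 7.30 in intact heart (-2.63 ± 0.18, adjusted p = 0.000131). Man1b1, which trims sugars from misfolded glycoproteins, had 4.94 and 4.68 in MI heart, against 7.51 and 7.15 in intact heart (-2.52 ± 0.18, adjusted p = 0.000158). Fam83g, Hpgd and Hspa1l missed the threshold without either MI heart array (adjusted p between 0.0542 and 0.0991). The calls of Chil3 and Fam83g were lost under 4 each and those of Hpgd and Hspa1l under 1 of 14 other settings.

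Outside the lists, 6 further called genes were chosen after their values were seen, for roles next to those above. Txnip, which restrains glucose uptake and thioredoxin, had 7.80 and 7.61 in MI heart, against 9.02 and 8.79 in intact heart (-1.20 ± 0.17, adjusted p = 0.00384). Mlxipl, the glucose-sensing transcription factor ChREBP, had 6.83 and 6.16 in MI heart, against 5.07 and 4.15 in intact heart, at least 3.30-fold higher, adjusted p = 0.00814. Pygl, which breaks down glycogen, had 5.69 and 5.39 in MI heart, against 4.20 and 4.23 in intact heart, at least 2.06-fold higher, adjusted p = 0.00262. Aqp1, a water channel, had 5.11 and 5.17 in MI heart, against 6.64 and 6.80 in intact heart (-1.58 ± 0.15, adjusted p = 0.000800). Batf, an AP-1 family factor, had 6.23 and 6.42 in MI heart, against 7.90 and 8.15 in intact heart (-1.70 ± 0.18, adjusted p = 0.00131). Cyp27a1, which makes oxysterols that activate LXR, had 6.75 and 6.99 in MI heart, against 8.56 and 8.28 in intact heart (-1.55 ± 0.20, adjusted p = 0.00280). No MI heart array overlapped an intact heart array for these 6 genes, as in every call and in 54.0% of all tests. Mlxipl missed the threshold without MI heart replicate 1 (adjusted p = 0.0911). Txnip lost the call without MI heart replicate 2 (adjusted p = 0.0517). The call of Mlxipl was lost under 1 of 14 other settings.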

How the data were processed

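RNA of sorted macrophages was hybridised as biotinylated cRNA to Illumina bead arrays, per the labels' protocols. The deposited table held intensity values of 45281 probes on 6 arrays, neither normalized nor background-subtracted, with a detection p-value per probe and array. How the detection p-value was computed is not given in the sources used here. A second deposited table held intensity values of one distribution across arrays, normalized by the authors in an unstated way, and it served as an alternative. Its replicate numbers of MI heart and of peritoneal cavity are exchanged relative to the first table, which was followed here. Every column of values was used.

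Intensities were background-corrected and quantile-normalized with limma 3.58.1 in R 4.3.3 (neqc, negative controls inferred from the detection p, offset 16) and taken to log2. Probes at a detection p under 0.05 on both arrays of at least 1 of the 3 groups were kept (14817 probes). Each gene was represented by its probe with the highest mean over 6 arrays, and unnamed probes stood alone, which left 10533 tests. Gene names came from the platform annotation, in which 34885 probes had 1 symbol, 18 several and 10378 none. Groups were compared in 1 limma fit (lmFit, eBayes) over all 6 arrays, with two-sided tests and Benjamini-Hochberg adjustment over all tests. The number of arrays limits the precision.

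Named genes were the called members of 75 functional and 13 marker lists, with textbook counterparts, the 8 most abundant called genes per direction, the 6 called below 2-fold with the smallest p, the 6 brightest that switched detection, large changes not yet described and the genes of the sort. One of the functional lists is not reported here. Members and lists were chosen with earlier results of these data known. Promoter sequences came from RefSeq on GRCm38.p6 and matched 6719 of the tested genes. Same-numbered arrays were checked for shared deviations from their group means (correlation 0.0829 between MI and intact heart), and the numbers were not taken to pair the arrays. The alternatives covered normalization, background, filter, probe choice, the arrays in the fit, the variance model and a block, and each array was left out in turn.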

Additional observations from a re-analysis of the deposited data

How the results depend on the processing

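Alternatives were 6 that leave out 1 array and 15 others, 21 in all. The fits without either peritoneal array and the fit with 4 heart arrays gave the same result (288 higher and 302 lower). They are not separate checks, so a loss or gain in them is counted more than once. Of 264 named called genes, 92 were tested under 20 of them, since the strictest detection filter left them out, and the others under 21. In all, 76 kept the call wherever they were tested (41 under 21 and 35 under 20), 188 lost it under at least 1, and none changed sign. The loss came without an MI heart array for 173 and without an intact heart array for 91, and for 30 of them only by leaving out an array. Against 479 genes higher and 522 lower, leaving out each array in turn gave between 134 and 469 higher and between 99 and 501 lower. When a heart array is left out, the lone array of its group is assumed to vary like the others, and without a peritoneal array the fit rests on the 4 heart arrays. The lowest counts were those without an MI heart array. Scaling arrays to a common median gave 610 higher and 165 lower, and scaling to the median of filtered probes, added after seeing the data, 629 and 399. Without background correction the counts were 328 and 332, with an offset of 50 they were 339 and 362, and from the authors' normalized values 324 and 329. Without the filter 201 were higher and 223 lower of 29453 tests, and with detection p under 0.01 on all 4 heart arrays 284 and 412 of 5599. With 4 heart arrays in the fit 288 were higher and 302 lower, and with these normalized alone 281 and 299. The filter on the heart groups alone gave 503 and 536, trend and robust variance 590 and 660, array weights 422 and 471, each probe on its own 649 and 672, and the mean of a gene's probes 523 and 536. With replicate number as a block, 625 were higher and 690 lower. Counts within lists fell further over all 21 alternatives than in the fits without 1 array. The lowest counts called higher were 3 for monocyte genes, 5 for glycolysis, 1 for matrix proteases and 1 for alternative activation. For heat-shock chaperones the lowest count called lower was 4. The strictest detection filter leaves out some members of a list. Deviations of same-numbered arrays correlated at 0.0829 (MI and intact heart), 0.1683 (MI heart and peritoneal) and 0.1812 (intact heart and peritoneal), and the numbers were not taken to pair the arrays. With 2 arrays a group and dim probes near background, differences of low genes are understated and small differences could not be resolved. Some genes not called in the main fit were called under alternatives. These included Odc1 under 7, Il10 and Egr1 under 5 each, Folr2 under 4, and Mrc1 and Hspa8 under 3 each. The cause of the losses was not tested beyond the smaller number of arrays.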
